A study of Homo sapiens with 24 samples.

Results

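The heat shock protein genes described here are 10 genes that encode molecular chaperones: HSP90AA1, HSP90AB1, HSPA1A, HSPA1B, HSPA8, HSPD1, HSPE1, HSPH1, DNAJB1 and HSPB1. They were chosen by name, with earlier results of these data known, and the abundances of all their annotated transcripts were summed per gene. The 10 genes had 100 of the 188753 transcripts listed in each of the 2 tables of transcript abundance, of which 185318 could be assigned to 35608 genes. All libraries came from A549, a human lung adenocarcinoma line labelled WT, and hold polyadenylated RNA. In the whole-cell experiment, cells received a pool of TAOK2 siRNA or a non-targeting siRNA pool (control siRNA below), each at 30 nM by reverse transfection with a lipid reagent, or were treated with compound 2, labelled as an inhibitor of the kinase TAOK2, or with DMSO. Each of these 4 groups had 3 libraries, in batches A, B and C; their titles also carry the word mock, which the labels do not explain. In the fractionation experiment, nuclear, cytoplasmic and total RNA of cells with TAOK2 siRNA or control siRNA made 6 groups of 2 libraries, in batches 1 and 2. Cells of the siRNA groups had therefore gone through transfection, whereas no transfection is given for the compound 2 and DMSO groups. How much compound 2 was used, and for how long, is not stated in the labels. An siRNA pool leaves some of the target's RNA.

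Chaperones bind unfolded protein and help it to fold, and many are made in larger amounts when heat or another stress unfolds the proteins of a cell. In mammals that induction is driven by the transcription factor HSF1, which binds inverted repeats of the letters GAA, called heat shock elements, upstream of chaperone genes. Cytosolic HSP70 proteins take up unfolded chains that J-domain proteins bring to them, HSP110 proteins release the nucleotide from HSP70, HSP90 proteins finish the folding of kinases and receptors, the HSP60 and HSP10 pair folds proteins inside mitochondria, and small heat shock proteins hold unfolded chains in solution. Tumour lines such as A549 carry large amounts of several of these RNAs without heat.

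Abundances are in TPM, each transcript's share of a fixed total corrected for its length, so the number of reads behind a value is not kept and its counting error cannot be given. Changes are differences in mean log2(TPM + 1) between groups, fitted with limma over all 12 libraries of a table and called at a Benjamini-Hochberg adjusted p under 0.05 across all genes whose mean reached 1 TPM. The labels say that siRNAs were transfected in triplicate but do not tie each library to a culture, so p-values measure the spread between these libraries, which may be technical. TAOK2 RNA stood at 10.6, 12.5 and 8.56 TPM under TAOK2 siRNA, against 40.3, 38.2 and 34.3 TPM under control siRNA (log2 change -1.75, adjusted p = 2.08e-05). It also fell under compound 2, with 21.5, 30.7 and 20.5 TPM against 39.7, 40.6 and 37.5 TPM under DMSO (log2 change -0.70, adjusted p = 0.00131), a call lost when each library was centred on its median gene (-0.18, adjusted p = 0.209). In the fractionation table TAOK2 RNA was low: 3.67 and 2.99 TPM in total RNA with TAOK2 siRNA and 9.70 and 5.01 TPM with control siRNA, 9.68 and 6.24 against 15.6 and 9.31 TPM in nuclear RNA, and 2.41 and 0.728 against 7.63 and 3.37 TPM in cytoplasmic RNA. It was lower with TAOK2 siRNA in both batches of each fraction, and in none of the 3 did this pass the test. The A549 epithelial markers KRT8, KRT18 and ALDH1A1 lay between 869.9 and 12320 TPM in all 24 libraries, and the T cell gene CD3E was at 0 in all. Some markers stood otherwise: the epithelial EPCAM lay between 3.72 and 12.2 TPM in whole cells and between 25.7 and 112.7 TPM in the fractionation libraries, and the leukocyte list was not empty, with CD68 at 11.3 to 28.3 and 13.4 to 63.5 TPM and LYZ at 0.145 to 1.61 and 4.92 to 54.1 TPM in the same order. KRT19 lay between 90.8 and 288 TPM in whole cells and between 0.0707 and 1.22 TPM in the fractionation libraries.

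In GRCh38, GENCODE 29 places HSP90AA1 at chr14:102080738-102139699, HSP90AB1 at chr6:44246166-44253888, HSPA1A at chr6:31815464-31817946, HSPA1B at chr6:31827735-31830255, HSPA8 at chr11:123057489-123063230, HSPD1 at chr2:197486581-197516737, HSPE1 at chr2:197499994-197503457, HSPH1 at chr13:31134974-31162388, DNAJB1 at chr19:14514770-14529770 and HSPB1 at chr7:76302544-76304295, all as protein-coding genes. HSPE1 lies within the annotated span of HSPD1 on the opposite strand, and whether strand was used in the counting is not stated, so reads from stretches that both genes cover cannot be told apart.

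Some members cannot be told fully apart. Of the 31-base words in the most abundant transcript of HSPA1A, 74.3% also occur in HSPA1B, and 73.1% of those of HSPA1B occur in HSPA1A. Both genes lie in the major histocompatibility region of chromosome 6, and 15 member transcripts were listed on alternate sequences; these were added to the gene by symbol. How reads were divided between the pair is therefore uncertain, and their sum is given beside each. HSPD1, HSPB1, HSPE1, HSPA8 and both HSP90 genes share 19.1% to 46.5% of their words with other genes, DNAJB1 shares 7.79% and HSPH1 shares 0%. Of these, HSPE1 shared most with the gene HSPE1-MOB4, at 17.7% of its words. DNAJB1 and the others with words in common shared most with a gene whose symbol is that of a pseudogene. The 72 annotated pseudogene copies of the members summed to 4.54 to 8.88 TPM in the whole-cell libraries, and none reached a mean of 1 TPM there.

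The stretches upstream of the members' RefSeq start sites (GRCh38.p14) were searched for heat shock elements. The search used 2 inverted units, GAANNTTC or TTCNNGAA, each of which reads the same on both strands, and 3 alternating units in either orientation, which contain the 2-unit letters and are spaced in the same way. Within 250 bases upstream of a start site, 2 units were present in 11.6% and 3 units in 0.441% of 35116 promoter windows of all genes, and in 8 and 4 of the 16 windows of the members. Of the 10 members, 8 had 2 units in at least 1 window and 4 had 3 units: HSP90AA1, HSP90AB1, HSPA8 and HSPD1. No match was found in the single windows of HSPE1 and HSPH1, which says only that these letters are not in those windows. The HSPE1 start site lies 385 bases downstream of the start of its most abundant transcript, so its window lies within that transcript's span. The HSPH1 start site lies 461 bases upstream of the start of its most abundant transcript. The HSPD1 site at chr2:197500062-197500090 lies between the start of HSPE1 at 197499994 and the HSPE1 window. HSPE1 thus cannot be said to lack an element nearby. The following sites, 1 per member with a match, are shown because they set the members with 3 units apart from those with 2. HSP90AB1 and HSPA8 each had a further site with 3 units, and DNAJB1 a further site with 2. Capitals mark the matched units.
HSP90AA1, chr14:102087104-102087133, minus strand: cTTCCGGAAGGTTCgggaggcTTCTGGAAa
HSP90AB1, chr6:44247823-44247851, plus strand: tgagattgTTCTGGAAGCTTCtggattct
HSPA8, chr11:123062346-123062374, minus strand: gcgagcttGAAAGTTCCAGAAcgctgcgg
HSPD1, chr2:197500062-197500090, minus strand: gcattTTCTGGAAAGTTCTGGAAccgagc
HSPA1A, chr6:31815426-31815455, plus strand: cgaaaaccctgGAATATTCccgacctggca
HSPA1B, chr6:31827622-31827651, plus strand: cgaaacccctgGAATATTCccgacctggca
DNAJB1, chr19:14518426-14518455, minus strand: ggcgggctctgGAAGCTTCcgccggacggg
HSPB1, chr7:76302480-76302509, plus strand: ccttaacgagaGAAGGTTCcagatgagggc

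The first capital lay 88 bases upstream of the RefSeq start site in HSP90AA1, 112 in HSP90AB1, 230 in HSPA8, 245 in HSPD1, 106 in HSPA1A, 105 in HSPA1B, 47 in DNAJB1 and 182 in HSPB1. In HSPA8 and HSPD1 that start site lies 199 and 207 bases downstream of the start of the main transcript. The HSP90AA1 site falls in an exon of the transcript that carried most of that gene's TPM, and the HSP90AB1 site lies downstream of the start of its gene's main transcript but outside that transcript's exons. The sites of HSPA1A and HSPA1B hold the same units in nearly the same surroundings. A match of letters is a description and not a measured binding site.

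In whole cells the members fell into 2 tiers of abundance. HSP90AB1, the constitutive cytosolic HSP90, had the highest mean in all 4 groups, at 1054 ± 69.8 TPM under TAOK2 siRNA, 1112 ± 21.8 under control siRNA, 1371 ± 123 under compound 2 and 983 ± 69.3 under DMSO (mean ± SD, n = 3 each). HSP90AA1, HSPB1, HSPD1, HSPA8 and HSPE1 followed, with group means between 340.3 and 1299.5 TPM. The second tier held HSPH1, DNAJB1 and the inducible HSP70 pair, HSPA1B and HSPA1A, with group means between 28.3 and 122 TPM. Neighbours in this order often overlapped: HSP90AB1 and HSP90AA1 did so under compound 2 and under DMSO, where HSP90AA1 was the higher of the pair in batch B, HSPB1 and HSPD1 did so in both compound 2 and control siRNA cells, and HSPH1 and DNAJB1 did so under control siRNA. Summed over the 10 genes, the members took 0.536%, 0.544% and 0.583% of all TPM under compound 2, against 0.401%, 0.436% and 0.453% under DMSO. They took 0.444%, 0.443% and 0.475% under TAOK2 siRNA, against 0.460%, 0.474% and 0.485% under control siRNA.

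**Figure D1:**
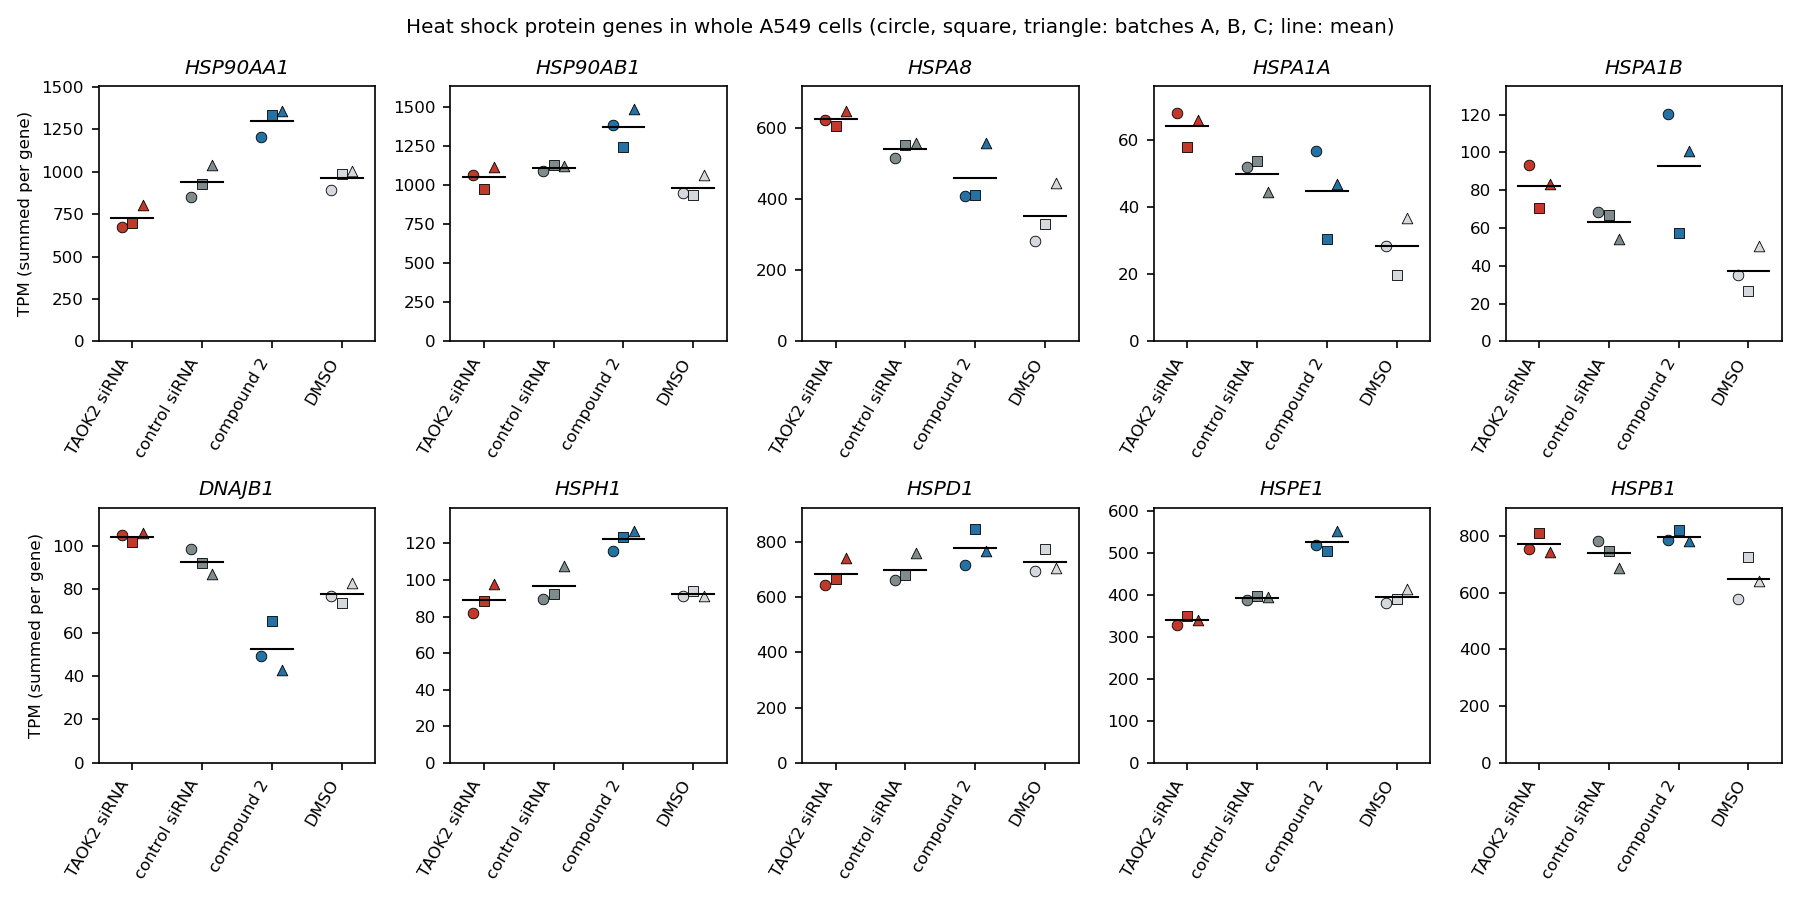
Summed TPM of each heat shock protein gene in the 12 whole-cell libraries, by group, 1 point per library with its batch as the shape and the group mean as a line. Compound 2 points lie above all DMSO points for HSP90AA1, HSP90AB1, HSPA1B, HSPE1, HSPH1 and HSPB1 and below them for DNAJB1; of all genes tested, the groups stood apart in that way for 12.5% and 51.3%.

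Compound 2, labelled as a TAOK2 inhibitor, was compared with DMSO to ask how these genes moved under it. Whether the changes came through TAOK2 was not tested. Of the 10 members, 8 rose and 1 fell, while HSPD1 did not pass the test. Of the 13199 genes tested, 12.1% rose and 51.9% fell. The median change was 0.41 for the members and -0.31 for all genes tested. Since TPM is a share, directions are relative: when each library was centred on its median gene, every change moved up by 0.51, all genes split into 5749 higher and 3221 lower in place of 1594 and 6852, and the members into 9 higher and 0 lower. The leukocyte markers summed to 26.9 to 29.6 TPM under compound 2 and 23.5 to 27.4 TPM under DMSO, with CD3E at 0, and their part in the result was not tested. In bulk RNA, fewer cells carrying an RNA and less RNA per cell cannot be told apart.

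Both cytosolic HSP90 genes rose. HSP90AA1, the stress-inducible form, had 1204, 1335 and 1360.0 TPM under compound 2, against 892, 989 and 1002 TPM under DMSO. All 3 compound 2 libraries lay above all DMSO libraries, and the log2 change was 0.43 ± 0.087 (SE; adjusted p = 7.52e-04). HSP90AB1 had 1384, 1241 and 1486 TPM under compound 2, against 952, 934 and 1062 TPM under DMSO. These groups did not overlap either, and its log2 change was 0.48 ± 0.074 (adjusted p = 1.01e-04). The change of HSP90AA1 differed little between batches, at 0.43, 0.43 and 0.44 in A, B and C.

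Among the HSP70 genes, the inducible pair had larger log2 changes than HSPA8. HSPA1A and HSPA1B together had 177, 88.1 and 148 TPM under compound 2, against 63.6, 46.7 and 87.0 TPM under DMSO. Every compound 2 library of the sum was above every DMSO library, though batch B of compound 2 came close to batch C of DMSO (log2 change 1.04 ± 0.26, adjusted p = 0.00504). Taken alone, HSPA1B rose by 1.27 on the log2 scale (adjusted p = 0.00201) and HSPA1A by 0.64 (adjusted p = 0.0299), the 2 groups overlapping for HSPA1A, whose call was lost in 4 of the 6 fits that left out 1 library of these groups (compound 2 batch A or C, DMSO batch A or B, adjusted p = 0.0539 to 0.116). With the transcripts of alternate sequences left out, the log2 change was 0.46 for HSPA1B (adjusted p = 0.442) and 0.72 for HSPA1A (adjusted p = 0.0745), so neither gene passed. HSPA8, the constitutive HSP70 that also removes clathrin coats, had 411, 411 and 559 TPM under compound 2, against 281, 331 and 445 TPM under DMSO. The highest DMSO library exceeded 2 of the 3 compound 2 libraries, and the change of 0.40 ± 0.15 (adjusted p = 0.0381) lost its call when compound 2 batch C or any of the DMSO batches A and B was left out (adjusted p = 0.0962 to 0.160). Fitted on the 6 compound 2 and DMSO libraries alone, HSPA1A (adjusted p = 0.0861) and HSPA8 (adjusted p = 0.112) did not pass.

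The cofactors of HSP70 moved in opposite directions. HSPH1, an HSP110 protein that exchanges the nucleotide of HSP70, had 116, 124 and 127 TPM under compound 2, against 91.2, 94.2 and 91.3 TPM under DMSO. The groups were well apart (log2 change 0.40 ± 0.081, adjusted p = 7.79e-04). DNAJB1, the J-domain protein that stimulates HSP70 in the cytosol, was the 1 member that fell, with 49.3, 65.3 and 42.9 TPM under compound 2, against 76.8, 73.9 and 82.9 TPM under DMSO. All compound 2 libraries were below all DMSO libraries, and the log2 change was -0.58 ± 0.12 (adjusted p = 8.79e-04), or -0.068 (adjusted p = 0.55) when libraries were centred on their median gene. Its size varied with the batch, at -0.63 in A, -0.18 in B and -0.94 in C.

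Of the mitochondrial pair, HSPE1 passed the test and HSPD1 did not. HSPE1, the HSP10 lid of the mitochondrial folding chamber, had 519, 506 and 553 TPM under compound 2, against 382, 390.2 and 415 TPM under DMSO, with no overlap (log2 change 0.41 ± 0.052, adjusted p = 1.92e-05). HSPD1, the HSP60 chamber itself, had 716, 846 and 768 TPM under compound 2 and 696, 775 and 706 TPM under DMSO. Those ranges overlapped, with a log2 change of 0.096 and a 95% interval of -0.077 to 0.27 (adjusted p = 0.311); after median centring it was 0.61 (adjusted p = 2.61e-05). HSPB1, the small heat shock protein HSP27, had 785, 822 and 784 TPM under compound 2, against 577, 727 and 642 TPM under DMSO, again without overlap (log2 change 0.30 ± 0.079, adjusted p = 0.00474).

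**Figure D2:**
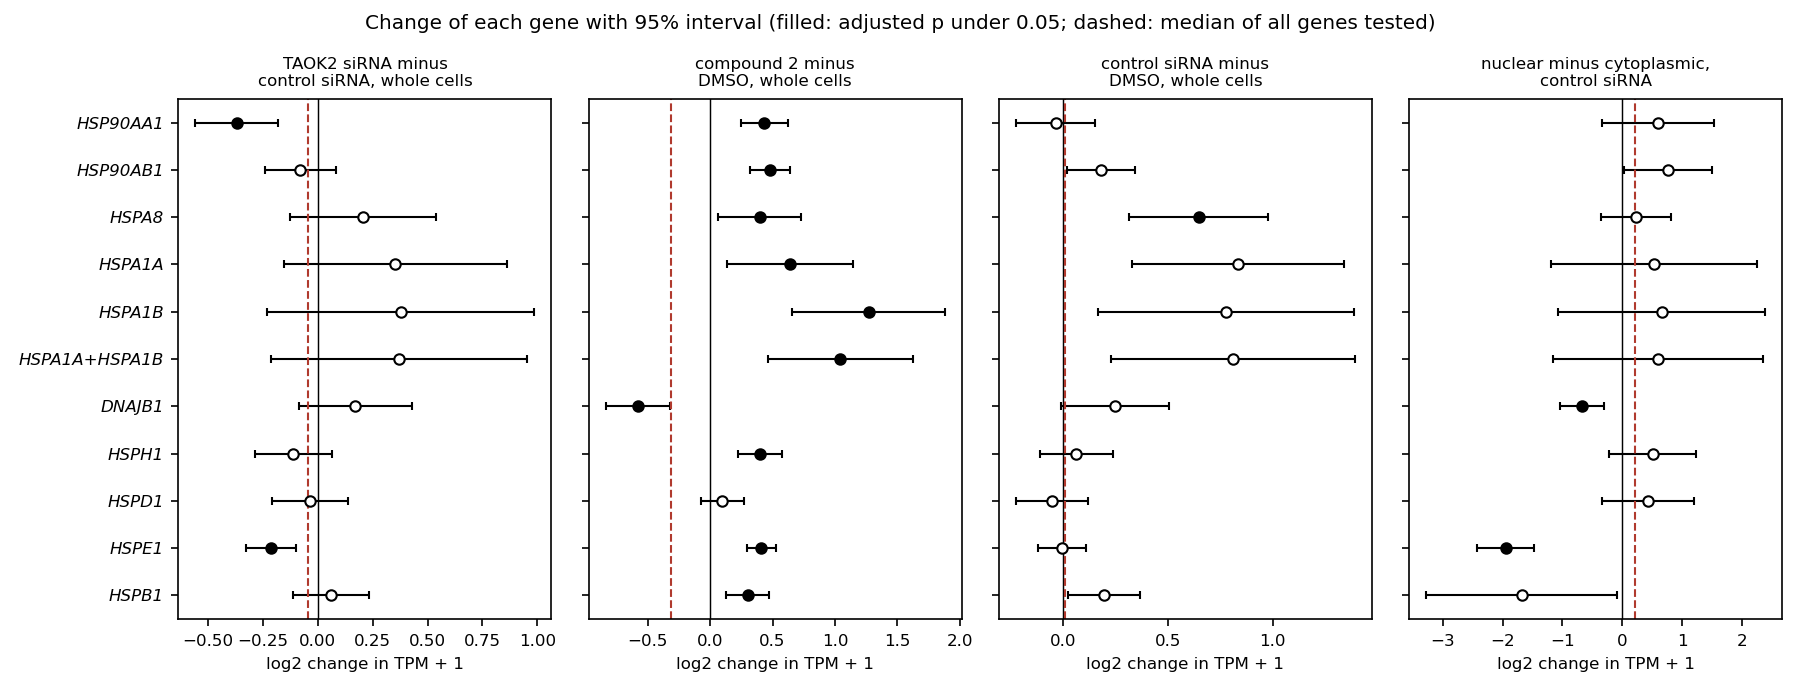
Log2 change of each gene in 4 comparisons, with its 95% interval from limma (filled points have an adjusted p under 0.05, and the dashed line is the median of all genes tested). Under compound 2 the filled points lie between 0.30 and 1.27 except DNAJB1 at -0.58, and under TAOK2 siRNA only HSP90AA1 and HSPE1 are filled.

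TAOK2 siRNA was set against control siRNA to ask the same of a loss of TAOK2 RNA. Of the 10, 0 rose and 2 fell, HSP90AA1 and HSPE1; of all genes tested, 7.85% rose and 14.5% fell, so the members' share lay near that of other genes. With median centring the split of all genes was 1389 higher and 1337 lower, in place of 1036 and 1919, and that of the members 0 higher and 1 lower. The median change was 0.013 for the members and -0.046 for all genes. HSP90AA1 had 676, 699.9 and 805 TPM under TAOK2 siRNA, against 852, 928 and 1038 TPM under control siRNA. The groups were apart and each batch showed the fall (log2 change -0.37 ± 0.087, adjusted p = 0.0102). HSPE1 had 328, 352 and 341 TPM under TAOK2 siRNA, against 389, 397 and 396 TPM under control siRNA. These values did not overlap (log2 change -0.21 ± 0.052, adjusted p = 0.0131), but the call was lost without TAOK2 siRNA batch A (adjusted p = 0.0543), without control siRNA batch B (adjusted p = 0.0508) and after median centring (log2 change -0.16, adjusted p = 0.172).

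For 4 further members every TAOK2 siRNA library lay above every control siRNA library, and none of these passed the test over all 12 libraries. Groups that stood apart were common, at 18.1% of all genes on the higher and 29.9% on the lower side, where HSP90AA1 and HSPE1 lay. The inducible pair HSPA1A and HSPA1B summed to 161, 129 and 149 TPM under TAOK2 siRNA and 120.1, 120.3 and 98.8 TPM under control siRNA (log2 change 0.37, 95% interval -0.21 to 0.95). HSPA8 had 624, 606 and 648 TPM under TAOK2 siRNA and 515, 553 and 560.0 TPM under control siRNA (log2 change 0.21, adjusted p = 0.363). With the transcripts of alternate sequences left out, HSPA1A changed by -0.042 and HSPA1B by 1.09, neither past the test. Fitted on the 6 siRNA libraries alone, HSPA1A, HSPA1B and HSPA8 passed as higher, with adjusted p of 0.0183, 0.0474 and 0.017, which with HSP90AA1 and HSPE1 made 3 members higher and 2 lower; that fit called 11.9% of all genes as higher and 20.8% as lower. DNAJB1 had 105, 102 and 106 TPM under TAOK2 siRNA and 98.8, 92.3 and 87.0 TPM under control siRNA (log2 change 0.17, adjusted p = 0.329). HSP90AB1, HSPD1, HSPH1 and HSPB1 overlapped between the groups, with log2 changes between -0.11 and 0.060. The 5 leukocyte markers, of which CD68 made up most and CD3E was at 0, summed to 12.3 to 17.4 TPM under TAOK2 siRNA and 18.0 to 21.0 TPM under control siRNA; their part in these results was not tested.

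Whether the siRNA and the compound changed a gene differently was tested as the difference between the 2 log2 changes, TAOK2 siRNA minus compound 2, each against its own control. Here 5 members passed: 4 were lower and 1 higher, against 12.4% and 42.8% of all genes. The difference was -0.80 for HSP90AA1 (adjusted p = 1.49e-04), -0.62 for HSPE1 (adjusted p = 2.11e-05), -0.56 for HSP90AB1 (adjusted p = 6.86e-04) and -0.51 for HSPH1 (adjusted p = 0.00214). HSP90AA1 and HSPE1 thus passed in opposite directions, falling with the siRNA and rising with the compound. For HSPE1 the call of the fall was lost with median centring. In the fractionation experiment HSPE1 was higher with TAOK2 siRNA in both batches of total, nuclear and cytoplasmic RNA, without passing the test over all libraries. For DNAJB1 the difference was 0.75 (adjusted p = 0.00222), which median centring reduced to 0.29 (adjusted p = 0.0881); with that centring every difference moved by -0.46, 8 members were lower and 0 higher, and all genes split into 2827 higher and 4698 lower in place of 5644 and 1635. For the HSPA1A and HSPA1B sum the difference was -0.67, with an interval of -1.49 to 0.15, and for HSPA8 it was -0.19, with an interval of -0.66 to 0.28. With batch as a block, HSPA1B (adjusted p = 0.0358) and HSPB1 (adjusted p = 0.0419) passed as lower too, which made 6 members lower and 1 higher, against 14.1% and 46.1% of all genes. The direction of HSPA1B rests on the transcripts of alternate sequences: without them its difference was 0.63 (adjusted p = 0.466), and with them -0.89.

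The 2 control groups also differed. Control siRNA shares its libraries with the siRNA comparison and DMSO shares its own with the compound comparison, so these values bear on both baselines. HSPA8 had 515, 553 and 560.0 TPM under control siRNA, against 281, 331 and 445 TPM under DMSO. It was the 1 member that passed (log2 change 0.65 ± 0.15, adjusted p = 0.03); 4.35% of all genes were higher and 2.13% lower. The call was lost when any 1 of control siRNA batches A, B and C or DMSO batches A and B was left out (adjusted p = 0.0656 to 0.114), and with median centring (log2 change 0.62, adjusted p = 0.0593), which split all genes into 430 higher and 369 lower in place of 574 and 281. The sum of HSPA1A and HSPA1B was 120.1, 120.3 and 98.8 TPM under control siRNA and 63.6, 46.7 and 87.0 TPM under DMSO. These groups did not overlap, yet the change of 0.81 did not pass (adjusted p = 0.0975). HSP90AB1, HSPA1A, HSPA1B, HSPA8 and DNAJB1 made up the 5 members whose control siRNA libraries all lay above the DMSO libraries, as did 16.9% of all genes, while 0 members and 13.3% of genes lay below. With batch as a block 3 members passed as higher, HSPA8, HSPA1A (adjusted p = 0.0195) and HSP90AB1 (adjusted p = 0.0492), and 0 as lower, where that fit called 12.1% of all genes in either direction.

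The rest of the chaperone system was followed in 10 lists of 93 other genes, of which 85 were measured in whole cells. Under compound 2, 19 of them rose and 29 fell, with a median change of -0.054, against -0.31 for all genes tested, of which 12.1% rose and 51.9% fell. Median centring turned that split of the 85 into 60 higher and 8 lower, so the directions of the lists below are relative to all other RNA. HSF1, the main activator of heat shock genes, fell to 87.7 ± 5.56 TPM under compound 2, against 108 ± 9.25 TPM under DMSO (log2 change -0.30, adjusted p = 0.00366), a direction that turned to 0.21 with median centring. HSF2, a second heat shock factor, rose to 8.80 ± 0.178 TPM under compound 2, against 6.29 ± 0.592 TPM under DMSO (adjusted p = 0.00104), and HSBP1, which binds HSF1, rose by 0.21. These are RNA levels and say nothing of the activity of the factors.

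Of the 20 other J-domain genes measured, 2 rose and 11 fell under compound 2, near the shares of all genes; with median centring 11 were higher and 5 lower. DNAJB12, a J-domain protein of the endoplasmic reticulum membrane, had 17.7 ± 0.979 TPM under compound 2, against 50.1 ± 1.62 TPM under DMSO (log2 change -1.45, adjusted p = 3.01e-09). DNAJA3, which works in mitochondria, changed by -1.37 and DNAJC5, which acts at secretory vesicles, by -0.88. Nucleotide exchange factors split, with 3 of 9 up and 1 down: BAG5 rose by 0.79, BAG4 by 0.47 and BAG2 by 0.46. The HSP90 co-chaperones split likewise, 4 of 16 up and 5 down, with TTC4 at -1.73, AHSA2P at -0.73 and SUGT1 at 0.35. The cytosolic chaperonin, which folds actin and tubulin, had 3 of 8 subunits up and 1 down, and prefoldin, which hands it those substrates, 3 of 6 up and 0 down. With median centring these became 8 and 5 up and 0 down, the exchange factors 7 up and 0 down and the co-chaperones 13 up and 1 down. TCP1 was the chaperonin subunit with the smallest adjusted p (0.39, adjusted p = 7.76e-05). Of 8 mitochondrial proteases 0 rose and 5 fell, with HTRA2 at -1.08, LONP1 at -0.69 and AFG3L2 at -0.43, the last turning to 0.082 with median centring. Of 9 other HSP70 and HSP110 genes 1 rose and 5 fell, with HSPA13 at -0.94. These counts too lay near the shares of all genes, and median centring made them 4 up and 1 down for the proteases and 5 up and 1 down for the HSP70 and HSP110 genes.

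Under TAOK2 siRNA, 5 of the 85 rose and 26 fell, with a median of -0.13 against -0.046 for all genes, of which 7.85% rose and 14.5% fell. With median centring 6 were higher and 20 lower, with 2 chaperonin subunits and 4 co-chaperones lower in place of 5 and 6. None of the 4 heat shock factor genes passed. The chaperonin had 0 subunits up and 5 of 8 down, and CCT2 fell to 231 ± 18.2 TPM under TAOK2 siRNA, against 357 ± 22.5 TPM under control siRNA (log2 change -0.62, adjusted p = 2.43e-04). The HSP90 co-chaperones had 0 of 16 up and 6 down, CDC37, which brings kinases to HSP90, among them (-0.32, adjusted p = 0.00138), with STIP1 at -0.31. GRPEL1, the exchange factor of mitochondrial HSP70, fell by 0.86 on the log2 scale, the J-domain genes DNAJC9 by 0.84 and DNAJB11 by 0.82, and the mitochondrial HSP90 gene TRAP1 by 0.51. Among the few that rose were HSPA2, an HSP70 known for its role in sperm (0.96, adjusted p = 0.00607), and the small heat shock protein HSPB8 (0.77, adjusted p = 0.00616). Between the control groups, 8 of the 85 were higher under control siRNA than under DMSO and 2 lower, against 4.35% and 2.13% of all genes. The higher ones included HSPA5, the HSP70 of the endoplasmic reticulum (0.48, adjusted p = 0.00515), HSP90B1 of the same compartment (0.29, adjusted p = 0.0153) and DNAJA1, a cytosolic J-domain partner of HSP70 (0.45, adjusted p = 0.00346).

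**Figure D3:**
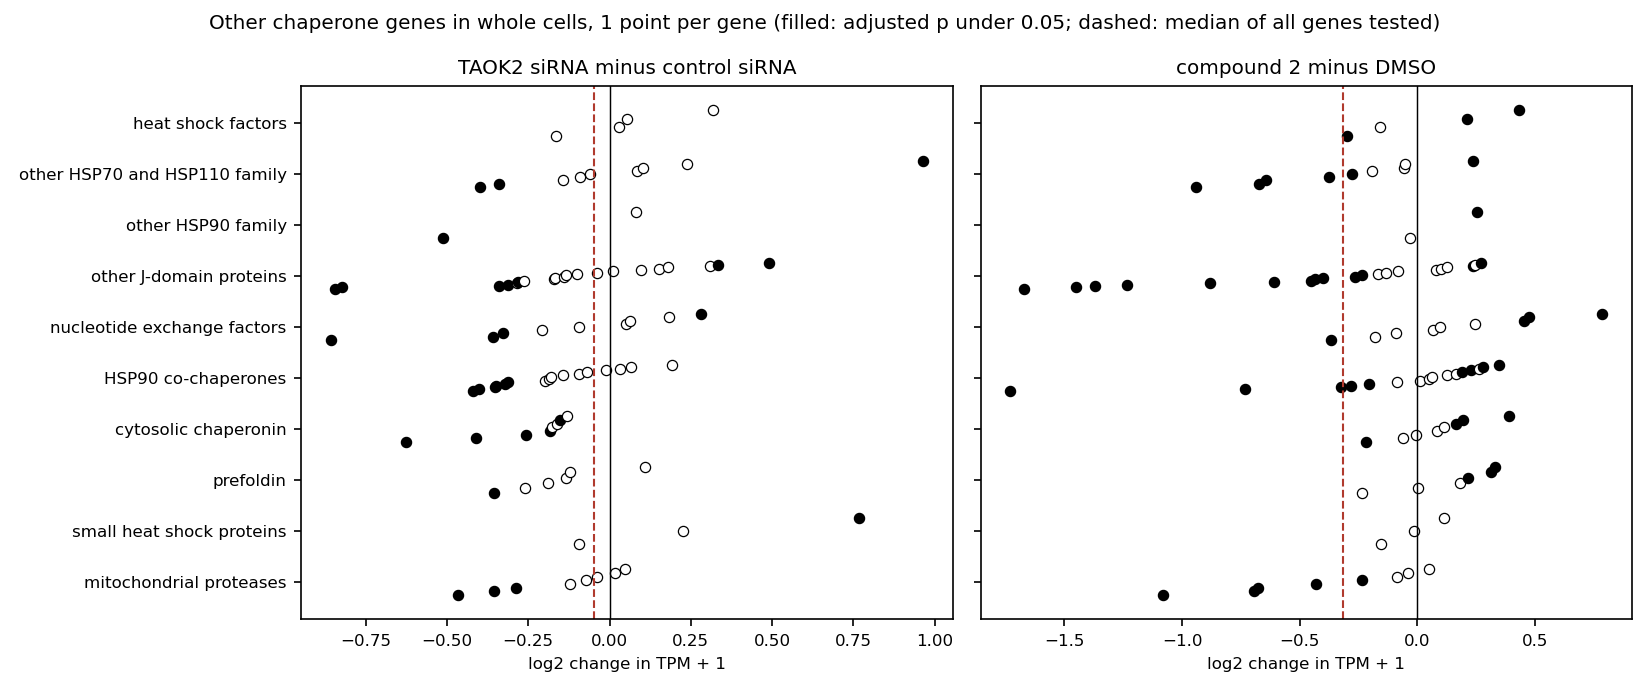
Log2 change of each measured gene of the 10 lists of other chaperone genes under TAOK2 siRNA (left) and compound 2 (right), 1 point per gene, filled where the adjusted p is under 0.05, with the median of all genes tested as a dashed line. Filled chaperonin points all lie below 0 under TAOK2 siRNA, and under compound 2 filled J-domain points reach -1.67 while filled prefoldin points lie above 0.

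In the fractionation experiment the same knockdown moved no member past the test. Of the 10 members, 0 were called in total RNA, 0 in nuclear RNA and 0 in cytoplasmic RNA, where 0%, 0.0144% and 0% of the 13865 genes tested were called. At an unadjusted p under 0.05, 0 members passed in each, against 6.65%, 9.71% and 6.78% of all genes. The labels give a batch, and the libraries followed it (30 of 30 same-batch pairs, in which each value occurs in both batches). With batch as a block, the knockdown called 360 genes in total, 839 in nuclear and 401 in cytoplasmic RNA. These were 2.60%, 6.05% and 2.89% of the genes tested, with 0, 1 and 0 members. For HSP90AA1 in total RNA the log2 change without the block was 0.12, with an interval of -0.81 to 1.05. HSPE1 came nearest in nuclear RNA, with 251 and 309.5 TPM under TAOK2 siRNA and 191 and 225 TPM under control siRNA. Both knockdown libraries were higher (log2 change 0.43, adjusted p = 0.577), and with batch as a block it was the 1 member that passed (adjusted p = 0.022). DNAJB1 had 72.5 and 63.9 TPM in cytoplasmic RNA under TAOK2 siRNA and 76.3 and 73.5 TPM under control siRNA (log2 change -0.14, adjusted p = 1). The 6 fibroblast markers, mostly LUM, summed to 31.4 to 51.1 TPM in the libraries with TAOK2 siRNA and to 15.2 to 22.5 TPM in those with control siRNA; their part in these values was not tested.

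Levels in the 2 tables cannot be tested against each other, since the experiments were quantified separately, and some members stood far apart. HSPB1, at 577 to 822 TPM in whole cells, had 54.6 and 38.6 TPM in total RNA with TAOK2 siRNA and 50.9 and 62.6 TPM in total RNA with control siRNA. HSPA8 was the most abundant member of total RNA, with 1289.8 and 1233 TPM with TAOK2 siRNA and 1643 and 1237 TPM with control siRNA. HSPA8 in every total RNA library exceeded both fractions of its own batch and siRNA. Part of HSPA8 in batch 1 came from 1 transcript, HSPA8-220, an annotated processed transcript: it held 369.9 TPM with TAOK2 siRNA and 439 TPM with control siRNA in batch 1, but 2.92 and 13.5 TPM in batch 2. HSP90AA1-203, a coding form, held 334 TPM with TAOK2 siRNA and 342 TPM with control siRNA in batch 1, but 50.7 TPM with TAOK2 siRNA and 30.6 TPM with control siRNA in batch 2. Batch also went with the inducible pair: HSPA1A and HSPA1B summed to 66.7 and 30.0 TPM in total RNA with TAOK2 siRNA and 66.7 and 35.2 TPM with control siRNA, in batches 1 and 2, and were higher in batch 1 in all 6 groups.

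Nuclear RNA was compared with cytoplasmic RNA within each siRNA. The markers listed for the cytoplasmic fraction, 6 RNAs of the mitochondrial genome, went against the labels: they took 168900 to 198300 TPM in the libraries labelled nuclear and 44610 to 54270 TPM in those labelled cytoplasmic. Nuclear and cytoplasmic below mean these labels, on which every direction rests, and the nuclear noncoding RNAs listed as markers were not analysed here. The part of the mitochondrial RNAs in the values of other genes was not tested. With control siRNA, 0 members were higher and 2 lower in nuclear RNA, against 29.9% and 19.0% of all genes. With TAOK2 siRNA, 2 were higher and 2 lower, against 28.7% and 16.7%. Centring on the median moved these changes by -0.39 and -0.37, which left 0 members higher and 3 lower with each siRNA. All genes then split into 2790 higher and 4155 lower with control siRNA, in place of 4151 and 2628, and into 2534 and 3693 with TAOK2 siRNA, in place of 3979 and 2310.

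HSPE1 was lower in nuclear RNA with both siRNAs. It had 191 and 225 TPM in nuclear RNA, against 736 and 870.5 TPM in cytoplasmic RNA with control siRNA. It had 251 and 309.5 TPM in nuclear RNA, against 867 and 1064 TPM in cytoplasmic RNA with TAOK2 siRNA. The fractions were far apart in both batches, with log2 changes of -1.94 ± 0.21 with control siRNA (adjusted p = 1.39e-04) and -1.78 ± 0.21 with TAOK2 siRNA (adjusted p = 2.96e-04). DNAJB1 had 47.2 and 45.9 TPM in nuclear RNA, against 76.3 and 73.5 TPM in cytoplasmic RNA with control siRNA. It too was lower in nuclear RNA, with log2 changes of -0.68 with control siRNA (adjusted p = 0.00782) and of -0.56 with TAOK2 siRNA (adjusted p = 0.0197). HSPB1 had 42.1 and 14.9 TPM in nuclear RNA and 123 and 55.8 TPM in cytoplasmic RNA with control siRNA; its batches differed widely and the change of -1.68 did not pass (adjusted p = 0.0771), but it did with batch as a block (adjusted p = 0.00566).

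HSP90AB1 and HSPH1 were higher in nuclear RNA with TAOK2 siRNA, calls that median centring removed. HSP90AB1 had 751 and 1077 TPM in nuclear RNA, against 289 and 541 TPM in cytoplasmic RNA with TAOK2 siRNA (log2 change 1.18, adjusted p = 0.0166). HSPH1 had 83.4 and 113 TPM in nuclear RNA, against 36.0 and 69.2 TPM in cytoplasmic RNA (log2 change 0.94, adjusted p = 0.0401). With control siRNA the changes were 0.76 for HSP90AB1 and 0.50 for HSPH1, and neither passed. Whether the siRNA altered the ratio of nuclear to cytoplasmic RNA was tested directly and passed for 0 members and 0% of all genes (0 members and 1.28% of genes at an unadjusted p under 0.05), with a change of 0.42 and an interval of -0.61 to 1.46 for HSP90AB1. The calls of HSP90AB1, HSPH1 and, with TAOK2 siRNA, DNAJB1 were lost without some single libraries and when the 4 libraries compared were fitted alone. With batch as a block, which the labels support and which every same-batch pair of this table followed, 4 members were higher and 3 lower in nuclear RNA with control siRNA, and 7 higher and 3 lower with TAOK2 siRNA. Of all genes that fit called 40.7% as higher and 27.8% as lower in the control siRNA cells; for TAOK2 siRNA it called 40.9% as higher and 25.4% as lower. The higher ones with control siRNA were HSP90AB1, HSPA1B, HSPD1 and HSPH1, with adjusted p of 0.00335, 0.0294, 0.0172 and 0.0265.

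**Figure D4:**
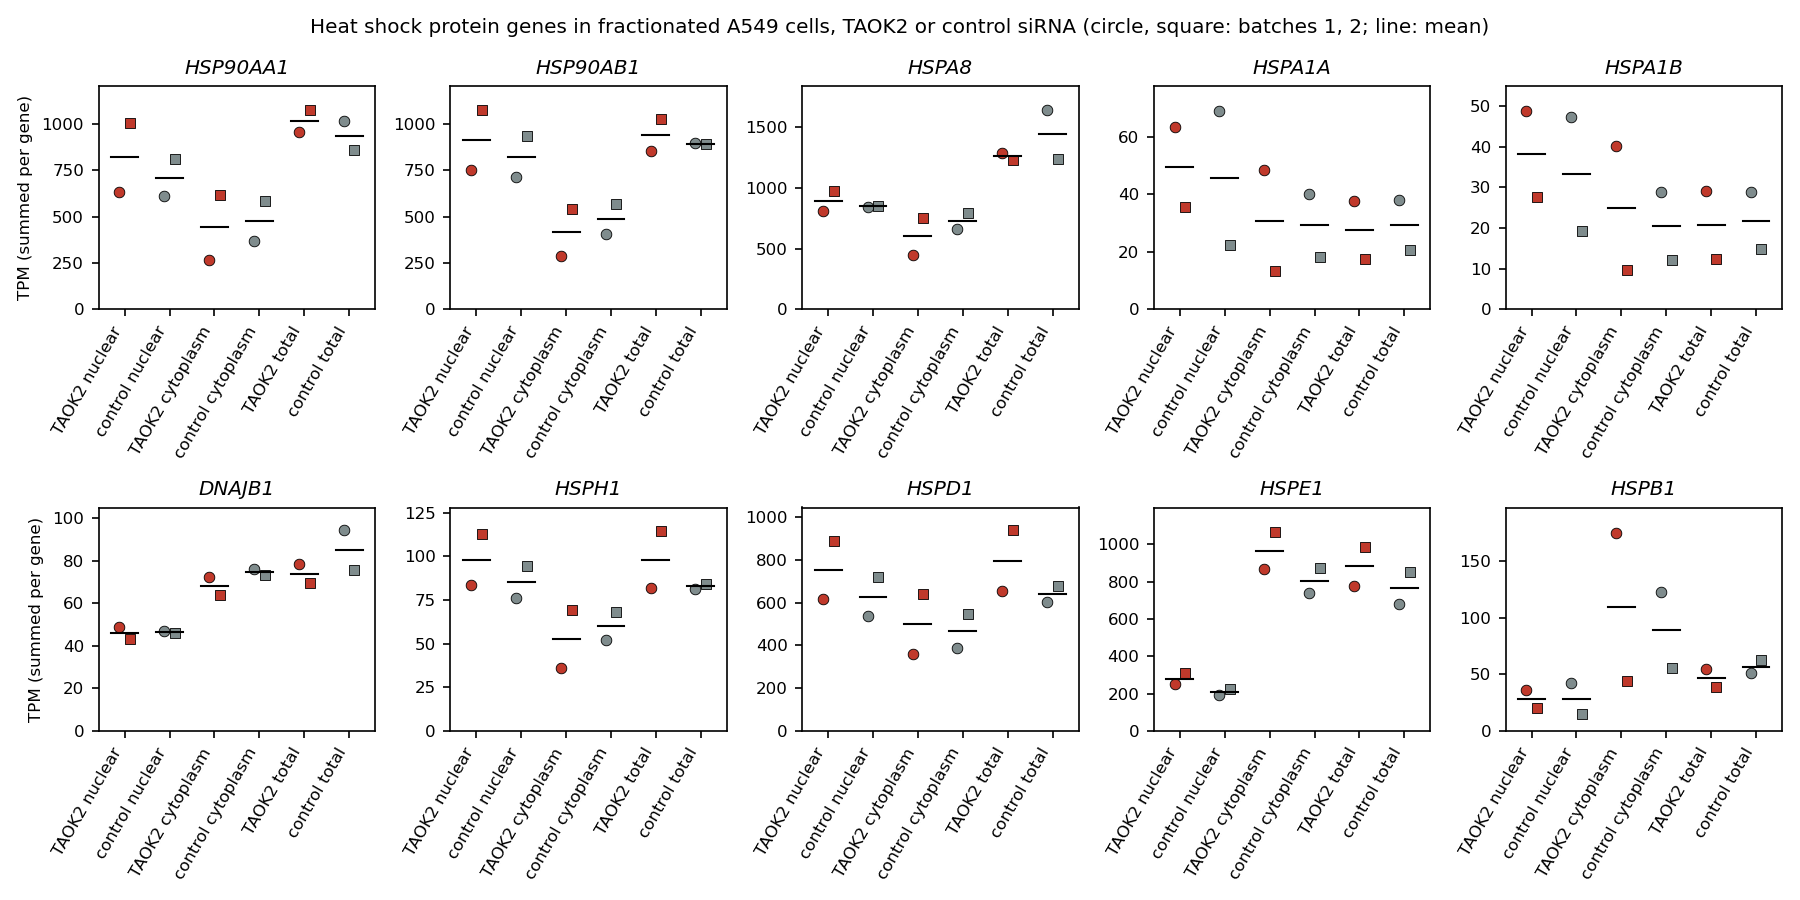
Summed TPM of each heat shock protein gene in the 12 fractionation libraries, nuclear, cytoplasmic and total RNA, with TAOK2 siRNA left of control siRNA, 1 point per library and the mean as a line. HSPE1 lies between 191 and 309.5 TPM in nuclear and between 736 and 1064 TPM in cytoplasmic libraries, and HSPA1A and HSPA1B are higher in batch 1 (circles) in every group.

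Of the 86 other chaperone genes measured in this table, 7 were higher and 24 lower in nuclear RNA with control siRNA, with a median change of -0.25 against 0.22 for all genes, of which 29.9% were higher and 19.0% lower. With median centring 4 were higher and 38 lower. All 6 prefoldin subunits were lower in nuclear RNA with either siRNA, with PFDN6 at -1.41 with control siRNA (adjusted p = 5.34e-05), PFDN1 at -2.15 and VBP1 at -1.73. Of 9 nucleotide exchange factors, 4 were lower with control siRNA, among them BAG1 (-1.18) and GRPEL1 (-1.17), and 3 with TAOK2 siRNA. The co-chaperone PTGES3 was lower too (-1.74 with control siRNA). The RNAs of AHSA2P, a pseudogene related to the HSP90 activator AHSA1, and of HSF4 were higher in nuclear RNA, by 5.32 and 4.34. HSF1 itself did not pass (-0.11). Of the pseudogene copies, 2 of HSPE1 were abundant enough to test, and HSPE1P21 was higher in nuclear RNA with both siRNAs, opposite to its parent (2.66 with control siRNA, adjusted p = 0.02, and 2.40 with TAOK2 siRNA, adjusted p = 0.033).

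Which transcripts made up a member was also compared, as the share of each transcript in its gene's TPM. With control siRNA, 16 of the 58 member transcripts tested took a larger share in nuclear than in cytoplasmic RNA and 3 a smaller one, against 22.0% and 14.1% of all transcripts tested. Of the 16, 12 are annotated as retaining an intron, out of 17 such transcripts tested. The share among intron-retaining transcripts of all genes was not computed, so this count cannot be read as particular to the members. In HSPD1, HSPD1-212 made up 6.90 and 10.6% of the gene's TPM in nuclear RNA, against 0.161 and 0.0795% in cytoplasmic RNA (adjusted p = 1.57e-04). HSPD1-214 made up 12.5 and 6.67% in nuclear RNA, against 0.110 and 0.0461% in cytoplasmic RNA (adjusted p = 1.51e-04). The coding transcript HSPD1-202 held a smaller share, 72.8 and 72.2% in nuclear RNA, against 98.0 and 97.9% in cytoplasmic RNA. In level, HSPD1-202 stood at 456 TPM in nuclear and 458 TPM in cytoplasmic RNA (means, n = 2 each). In HSPA8 the coding transcript HSPA8-203 made up 5.59 and 2.57% in nuclear RNA, against 0.524 and 0.253% in cytoplasmic RNA. In HSPE1, HSPE1-202 made up 4.10 and 11.2% in nuclear RNA, against 0.288 and 0.290% in cytoplasmic RNA. The 3 transcripts with a smaller nuclear share were the main coding ones of HSPD1, HSPE1 and DNAJB1.

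**Figure D5:**
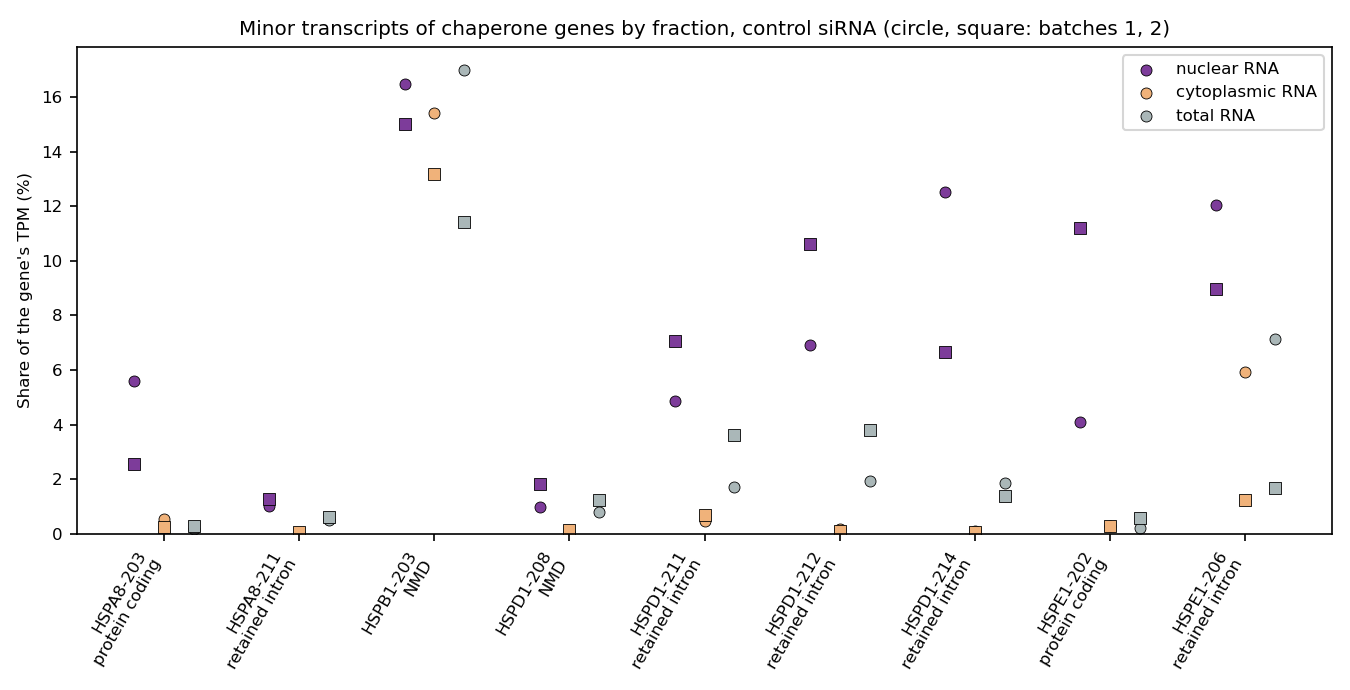
Share of the gene's TPM held by minor member transcripts in nuclear, cytoplasmic and total RNA with control siRNA, 1 point per library (circles batch 1, squares batch 2; NMD, annotated target of nonsense-mediated decay). The intron-retaining HSPD1-211, HSPD1-212 and HSPD1-214 take 4.86% to 12.5% in nuclear RNA and under 1% in cytoplasmic RNA, while HSPB1-203 overlaps between the fractions.

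Between siRNAs in nuclear RNA, 0 of 58 member transcripts changed their share by limma (1 at an unadjusted p under 0.05), against 0% and 2.95% of all transcripts. In whole cells TAOK2 siRNA changed the share of 0 of 48 (9 at an unadjusted p under 0.05), against 0.0878% and 10.7%. Compound 2 raised the share of 2 and lowered that of 5 of 48, against 16.6% and 17.7% of all transcripts tested, and each of the 7 was a minor transcript. The intron-retaining HSPD1-212 was one of them, at a mean of 0.321% of HSPD1 under compound 2, against 0.609% under DMSO (adjusted p = 0.0239). The main form of HSPH1 differed between the tables: HSPH1-202 held 52.3, 51.2 and 57.6 TPM in whole cells with control siRNA and 13.2 and 11.9 TPM in total RNA of the fractionation experiment, whereas HSPH1-209 held 5.35, 6.32 and 6.79 TPM in whole cells and 58.7 and 65.8 TPM in total RNA.

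Across the 12 whole-cell libraries the members did not form 1 pattern. Pearson correlations of log2(TPM + 1), given as descriptions over libraries that share groups and batches, were 0.945 between HSP90AA1 and HSPE1 and 0.909 between HSP90AA1 and HSPH1. DNAJB1 ran against these, at -0.868 with HSP90AA1 and -0.930 with HSPE1. HSPA8 went with the inducible HSPA1A, at 0.836, and not with HSP90AA1, at -0.346. In the fractionation table HSP90AA1 and HSP90AB1 correlated at 0.967 and HSPD1 and HSPH1 at 0.954, while HSPE1 went with DNAJB1, at 0.830. The genes most like each member, out of 9488 compared in both tables, were ranked by the smaller of the 2 correlations, with the other members left out. For HSP90AA1 these were NOLC1, at 0.978 in whole cells and 0.955 in the fractionation table, and PDS5A, at 0.937 and 0.921. For HSPE1 they were TOMM5, at 0.978 and 0.989, and MAPRE1, at 0.977 and 0.979. For DNAJB1 they were DTD2, at 0.951 and 0.947, and PTPRA, at 0.941 and 0.962. For HSPA1B the first was CARD19, at 0.795 and 0.818, while HSPA1B and HSPA1A, which share sequence, correlated at 0.864 and 0.991.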

How the data were processed

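The authors deposited 2 tables of TPM (each library sums to a fixed total), 1 per experiment, with transcripts quantified by kallisto (version not stated) on GRCh38.p14, as the submitters' processing notes list. Per the labels' protocols, libraries were polyA-selected and sequenced as 150 bp pairs to a stated minimum of reads, but TPM keeps no depth, so no counting interval is given. Between 98.8% and 99.5% of TPM in a library belonged to transcripts assigned to genes of GENCODE 29.

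Transcripts were summed per gene. log2(TPM + 1) was fitted, for genes whose mean reached 1 TPM, with limma 3.58.1 (R 4.3.3) as group means over the 12 libraries of a table, with a robust mean-variance trend and Benjamini-Hochberg adjustment over all genes tested. Transcript shares were fitted likewise as log2 odds with 0.5 TPM added, for transcripts with a mean of at least 1 TPM in genes with at least 5 TPM. Both fits were tested on simulated data with known changes. Those data had independent noise in each library and no batch, so they do not show how the fits behave with the batches of the fractionation libraries. Promoter sequences came from RefSeq and were searched with Python 3.11.15.

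Named are all 10 members, their transcripts with a mean of at least 5 TPM, TAOK2, up to 3 called genes per list and comparison with the smallest adjusted p, the 2 genes most like each member, and pseudogene copies. List genes outside this rule are named only because an alternative turned their direction. The members and lists were chosen with earlier results of these data known.

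The labels give a batch shared by groups. Deviations from the group mean correlated above 0.1 in 30 of 30 same-batch pairs of the fractionation table (0.536 to 0.840) and in 12 of 18 pairs of the whole-cell table (-0.32 to 0.648). With 2 libraries per group, the deviations of batch 2 mirror those of batch 1, so each fractionation correlation is counted once in either batch. The alternatives were a pseudocount of 0.1, no filter on low values, median centring, protein-coding transcripts only, only the groups compared, batch as a replicate block, other filters and offsets for shares, and each library left out in turn. Leaving out transcripts of alternate sequences was added after seeing the data.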

Additional observations from a re-analysis of the deposited data

Results flagged for a closer look

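For 6 members the knockdown moved one way in all 3 batches of whole cells and the other way in both batches of fractionation total RNA. Of the 12533 genes tested in both tables, 13.9% did so in 1 direction or the other. The values below are the mean log2 differences over batches, TAOK2 siRNA minus control siRNA, first in whole cells and then in total RNA. HSPE1, the HSP10 gene, was at -0.2112 in whole cells and 0.2038 in total RNA. HSPD1, its HSP60 partner, was at -0.03356 and 0.292, and HSPH1, the HSP110 gene, at -0.1123 and 0.22. HSPA1A was at 0.3526 in whole cells and -0.1105 in total RNA, HSPA8 at 0.2052 and -0.1771, and DNAJB1 at 0.1703 and -0.1969. Of these 12 values the whole-cell value of HSPE1 was the 1 past its test. The whole-cell value of HSPD1 turned to 0.018 with median centring, and that of HSPA1A to -0.042 without the transcripts of alternate sequences. In batch 1 of total RNA, HSPA1A stood at 37.6 TPM with TAOK2 siRNA and 38.0 TPM with control siRNA. The sum of HSPA1A and HSPA1B was higher with TAOK2 siRNA in 1 of 2 batches of total RNA, so the pair together did not show the opposite movement. The difference between the experiments was not tested, because the tables were quantified separately.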

How the results depend on the processing

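In whole cells, leaving out 1 library at a time gave 7 to 9 members called under compound 2, 1 to 2 under TAOK2 siRNA, 5 to 6 for the difference between them and 0 to 2 between control siRNA and DMSO. The genes called ranged from 7876 to 8698, 1732 to 2329, 6677 to 7909 and 117 to 851 in the same order. In the fractionation table, nuclear against cytoplasmic RNA gave 2 to 3 members and 4857 to 5234 genes with control siRNA, and 1 to 8 members and 4264 to 5971 genes with TAOK2 siRNA. The knockdown there gave 0 members throughout, and 0 to 1 genes in nuclear RNA, in cytoplasmic RNA and on the ratio, and 0 in total RNA. Member transcripts with a changed share ranged from 3 to 7 under compound 2 and from 12 to 17 between fractions. They were 0 for TAOK2 siRNA in whole cells and in nuclear RNA. All transcripts were not counted in these fits, so the ranges cannot be read as particular to the members.

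With batch as a replicate block, TAOK2 siRNA called 360 genes in total, 839 in nuclear (with 1 member) and 401 in cytoplasmic RNA; between fractions 7 members were called with control siRNA and 10 with TAOK2 siRNA, and between control siRNA and DMSO 3 members and 1591 genes. With no filter on low values, the knockdown called 118 genes in nuclear, 2 in cytoplasmic and 1 in total RNA and 10 on the ratio, and control siRNA against DMSO called 446 genes and 0 members. With only the 2 groups compared, 5 members were called under TAOK2 siRNA in whole cells, with 4321 genes in place of 2955, 7 under compound 2, where HSPA1A and HSPA8 were lost, and 0 between control siRNA and DMSO; between fractions with TAOK2 siRNA 1 member and 3177 genes were called, and 0 genes for the knockdown in nuclear RNA. A pseudocount of 0.1 called 1 gene for the knockdown in cytoplasmic RNA, and protein-coding transcripts 4 in nuclear RNA. Median centring called 1 member under TAOK2 siRNA, 8 for the difference, 0 between control siRNA and DMSO, and 9 genes in nuclear and 1 in total RNA for the knockdown. Where a member count stands here without a count of all genes, it cannot be read as particular to the members. The cause of these shifts was not tested.

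No member called in the fits over all 12 libraries changed direction under any alternative run. Under compound 2, median centring turned HSPA9 to 0.14, HSPA4 to 0.24, TRAP1 to 0.48, DNAJC9 to 0.34, GRPEL1 to 0.42, BAG1 to 0.14, STUB1 to 0.42, CCT6A to 0.45, CCT2 to 0.30, HSPB8 to 0.50, CLPB to 0.28, AFG3L2 to 0.082, HSF1 to 0.21, DNAJB9 to 0.076, SPG7 to 0.47 and DNAJC10 to 0.43. For the difference between TAOK2 siRNA and compound 2 it turned AFG3L2 to -0.32, LONP1 to -0.12, HSF1 to -0.13, SPG7 to -0.46 and DNAJC10 to -0.047. With protein-coding transcripts only, DNAJB6 turned to -0.35 under compound 2, and between fractions CCT6A to -0.42 and SPG7 to -0.18 with control siRNA and CCT6A to -0.043 with TAOK2 siRNA. TPM keeps no depth, so what depth limits could not be assessed.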
